A study of Rattus norvegicus with 6 samples.

Results

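The kinesin genes of rat lung are described here across 6 polyA RNA-seq libraries, 3 from control rats and 3 from rats given monocrotaline (MCT). A gene was taken as a member when its symbol in the deposited table begins with Kif or Kifc followed by a digit. This rule, which uses no measured value, found 42 of the 23802 genes in the table, each on 1 identifier. Of these, 41 are named as kinesin motors (1 of them, Kif28p, as a pseudogene) and 1, Kif1bp, is the KIF1 binding protein, which is no motor. By textbook function the motors were placed in 4 roles: 14 of the spindle and cytokinesis, 13 of cargo transport, 9 of the cilium, centriole and hedgehog pathway, and 5 that regulate microtubules or have another function. The members, these roles and the gene lists used below were chosen with earlier results of these data known, so counts by role or list are descriptive.

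All rats were male, wild-type Sprague-Dawley animals of 200 to 250 g, and the tissue was lung, with no sorting of cells. The MCT rats received 1 dose of 60 mg/kg of MCT, a plant alkaloid that injures lung vessels and is used as a model of pulmonary arterial hypertension, and lungs were taken after 4 weeks. Controls received saline subcutaneously. The labels give the route of MCT as intraperitoneal in some fields and as subcutaneous in others, so the route may have differed between the groups. No source used here says whether each sample is a separate animal, so the p-values below speak of the spread of these libraries, part of which may be technical.

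Kinesins are motor proteins that split ATP to walk along microtubules or to take microtubule ends apart. One set works almost only in dividing cells, where it builds the bipolar spindle, moves chromosomes and closes the cell at cytokinesis. Another set carries vesicles, organelles and mRNA through cells that need not divide, and a further set serves the cilium, as the motor of intraflagellar transport, as a part of the motile axoneme or as a regulator of its length. Transcripts of the mitotic set are low in tissue with few dividing cells.

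Summed counts were 13525912 to 17916134 per library, and 15250 genes passed the filter on low counts and were tested. Levels are given as CPM, the count scaled to the TMM-normalised library size. MCT was compared with control by edgeR's quasi-likelihood test with Benjamini-Hochberg adjustment over all genes tested, and genes with an adjusted p under 0.05 are referred to as called, higher or lower. By that rule 8.01% of the genes tested were called higher in MCT lungs and 5.11% were called lower. The groups did not overlap, with MCT above, in 18.4% of genes, and with MCT below in 17.0%. Of the 15250 genes tested, 2418 were higher and 2161 lower in MCT lungs at an unadjusted p under 0.05 in edgeR's test. The number called over all genes, 1221 higher and 779 lower, depended on single libraries: it was 562 and 273 with control replicate 2 left out, 481 and 212 with control replicate 3, 712 and 343 with MCT replicate 1, and 735 and 324 with MCT replicate 3 left out. The lung identity of the samples was clear from Sftpc, the gene of surfactant protein C, at 13395 ± 1300 CPM in controls and 8917 ± 2970 CPM in MCT lungs (SD, n = 3). In the epithelial list 0 of 6 genes were called by edgeR, DESeq2 or limma-voom, and 0 had an unadjusted p under 0.05. Of the other marker lists, 2 of 4 endothelial genes were called lower (Tek and Cdh5), 2 of 3 smooth muscle genes higher (Cnn1 and Acta2; 1 with limma-voom) and 2 of 2 tested macrophage genes higher (Cd68 and Mrc1). The other endothelial genes, Pecam1 and Vwf, were not called, with log2 fold changes of 0.17 (SE 0.30) and 0.00 (SE 0.25), so the endothelial list gave no common direction.

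Of the 42 kinesin genes 39 were tested, and 10 were called higher, 3 lower and 26 were not called. The share called higher was 25.6%, against 8.01% of all genes, and the share called lower was 7.69%, against 5.11%. The MCT samples lay above all controls in 10 kinesins, against 18.4% of all genes, and below all controls in 5, against 17.0%. All 10 that rose belong to the spindle and cytokinesis role, in which 13 of 14 genes were tested and 0 fell by edgeR, DESeq2 or limma-voom, with 0 lower at an unadjusted p under 0.05. The median log2 fold change was 1.70 over the 13 spindle genes and -0.01 over all genes tested. The 3 that fell were Kifc2 and Kif13b, both cargo motors, and Kif26a, a signalling kinesin. With any of control replicates 2 and 3 and MCT replicates 1 and 3 left out, 1 kinesin was called lower, in each case Kifc2. In whole-tissue RNA, fewer cells of a type and less RNA per cell cannot be told apart. The same holds for more cells and more RNA.

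**Figure D1:**
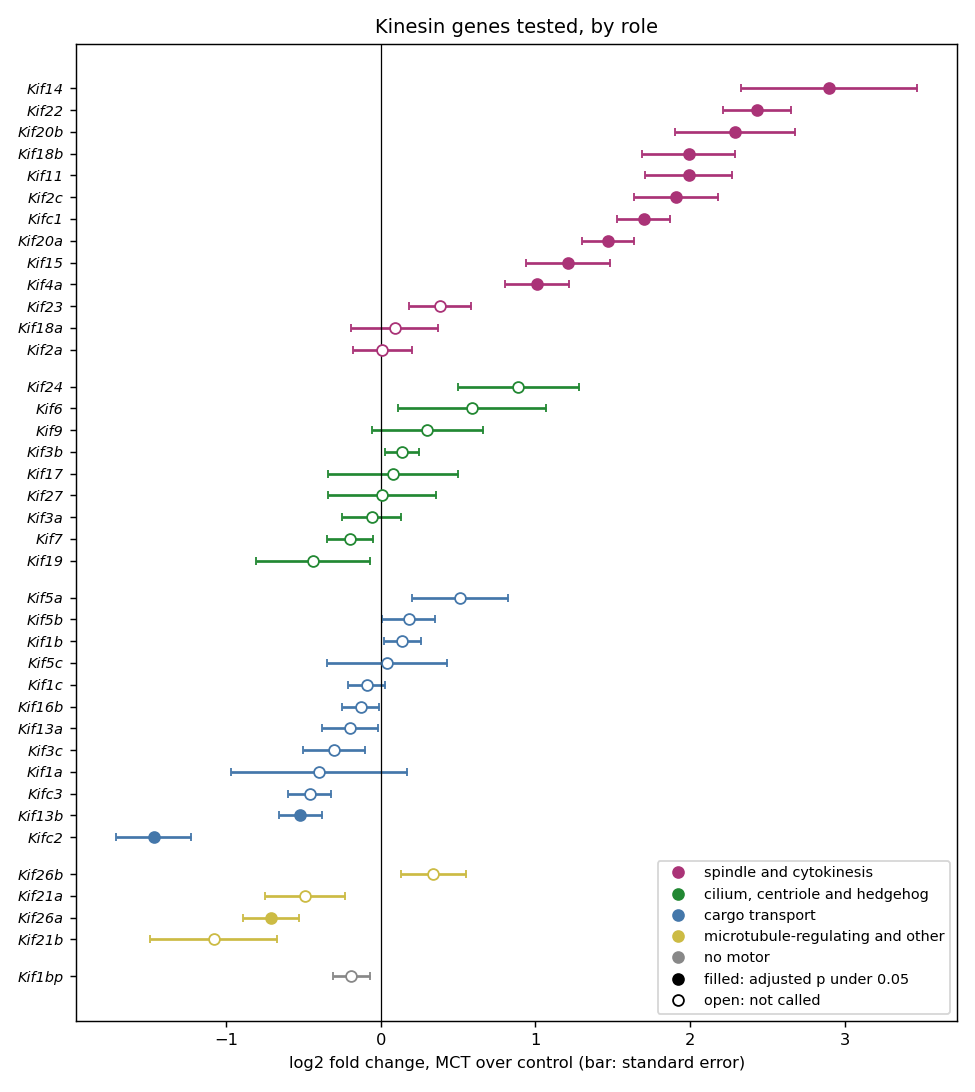
Log2 fold change of MCT over control (horizontal axis) for the 39 kinesin genes tested, grouped by role, with the standard error as a bar. Filled points passed an adjusted p of 0.05 in edgeR's test: 10 spindle genes lie to the right, with values from 1.01 to 2.90, and Kifc2, Kif13b and Kif26a to the left.

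The motors that act on chromosome arms both rose. Kif22, which pushes chromosome arms away from the spindle poles, had 3.33, 3.95 and 4.69 CPM in controls and 24.9, 23.3 and 16.7 CPM in MCT lungs, values being given here and in what follows for replicates 1, 2 and 3 in that order. Its lowest MCT sample lay above its highest control. The log2 fold change was 2.43 (SE 0.22, edgeR adjusted p = 0.000893). Kif4a, a chromosome motor that also shortens the central spindle of dividing cells, had 14.6, 11.7 and 11.2 CPM in controls and 32.8, 22.7 and 20.1 CPM in MCT lungs. The groups did not overlap here either, and the log2 fold change was 1.01 (SE 0.21, edgeR adjusted p = 0.0196). Leaving out control replicate 2 or 3 ended the call of Kif4a (adjusted p = 0.0746 and 0.082), in a range of 0.000588 to 0.082 over all settings.

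Motors that set up the bipolar spindle rose as well. Kif11, also known as Eg5, which slides antiparallel microtubules apart and whose loss leaves a monopolar spindle, had 3.79, 3.28 and 6.42 CPM in controls and 21.2, 15.2 and 17.8 CPM in MCT lungs. Every MCT value was above every control value, by a log2 fold change of 1.99 (SE 0.28, edgeR adjusted p = 0.00403). Kif15, which backs up Kif11 in holding the poles apart, had 7.05, 4.25 and 3.83 CPM in controls and 13.7, 10.6 and 10.6 CPM in MCT lungs. Control replicate 1 was the highest of its group, yet below all MCT samples, and the log2 fold change was 1.21 (SE 0.27, edgeR adjusted p = 0.0239). Leaving out control replicate 2 or 3 ended that call (adjusted p = 0.0878 and 0.09), as did leaving out MCT replicate 1 or 3 (adjusted p = 0.0737 and 0.0532), in a range of 0.000955 to 0.09 over all settings. Kifc1, a minus-end motor that focuses spindle poles and clusters centrosomes, had 6.45, 6.55 and 5.12 CPM in controls and 20.6, 19.7 and 18.6 CPM in MCT lungs. Its spread within each group was small beside the difference, with a log2 fold change of 1.70 (SE 0.17, edgeR adjusted p = 0.00118).

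The motors that shorten microtubules at their ends did not move alike. Kif2c (MCAK), which corrects faulty attachments at the centromere, had 2.06, 2.38 and 3.07 CPM in controls and 9.76, 11.2 and 7.43 CPM in MCT lungs, a log2 fold change of 1.91 (SE 0.27, edgeR adjusted p = 0.00422). Kif18b, which shortens astral microtubules, had 1.46, 2.31 and 2.97 CPM in controls and 8.21, 10.6 and 8.20 CPM in MCT lungs. In these 2 genes no MCT sample fell within the range of the controls, and the log2 fold change of Kif18b was 1.99 (SE 0.30, edgeR adjusted p = 0.00565). Kif18a, which damps the movement of aligned chromosomes, had 5.32, 9.09 and 7.76 CPM in controls and 9.83, 5.75 and 7.99 CPM in MCT lungs. Its groups overlapped throughout, and its log2 fold change was 0.09 (SE 0.28, edgeR adjusted p = 0.867), and was negative with control replicate 1 (-0.10) or MCT replicate 1 (-0.10) left out. Kif2a, a close relative of Kif2c that also acts in cells that do not divide, had 15.6, 11.5 and 13.4 CPM in controls and 16.1, 12.1 and 12.7 CPM in MCT lungs. Its log2 fold change was 0.01 (SE 0.19, edgeR adjusted p = 0.971), and was negative with control replicate 2 (-0.09) or MCT replicate 1 (-0.12) left out. Kif2b, another of these relatives, had 1 count in MCT replicate 2 and none in the other libraries, and was not tested.

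Among the motors of the central spindle and of cytokinesis, 3 rose and Kif23 was not called. Kif20a, which carries the chromosomal passenger complex to the spindle midzone, had 7.85, 7.15 and 7.66 CPM in controls and 20.5, 23.7 and 18.4 CPM in MCT lungs, a log2 fold change of 1.47 (SE 0.17, edgeR adjusted p = 0.00189). Kif20b, which acts late in cytokinesis, had 1.93, 0.968 and 1.62 CPM in controls and 10.6, 4.62 and 7.14 CPM in MCT lungs. The MCT samples of Kif20b were spread over a wider range than those of Kif20a, all above the controls, and the log2 fold change was 2.29 (SE 0.39, edgeR adjusted p = 0.00941). Kif14, which recruits citron kinase to the cleavage furrow, was the least abundant of the genes that rose, with 5, 1 and 4 counts in controls and 16, 40 and 20 in MCT lungs. These counts correspond to 0.208 ± 0.129 CPM in controls and 1.62 ± 0.670 CPM in MCT lungs (SD, n = 3), and the log2 fold change was 2.90 (SE 0.57, edgeR adjusted p = 0.0145). Leaving out control replicate 2 or 3 ended the call of Kif14 (adjusted p = 0.059 and 0.0705), and so did the log2(FPKM + 1) scale, where the difference was 0.35 (adjusted p = 0.0943). The range over all settings was 0.00207 to 0.0943.

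Kif23, the motor subunit of centralspindlin, had 15.2, 11.2 and 12.5 CPM in controls and 17.4, 19.6 and 13.4 CPM in MCT lungs. MCT replicate 3 lay within the range of the controls, and the log2 fold change of 0.38 (SE 0.20) did not pass (edgeR adjusted p = 0.242, and 0.161 to 0.479 over all settings). Its partner in the same complex, Racgap1, rose by 1.57 (SE 0.18, edgeR adjusted p = 0.00189), from 9.33 ± 1.81 to 27.6 ± 1.80 CPM (SD, n = 3). The difference between the changes of Kif23 and Racgap1 was not tested.

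**Figure D2:**
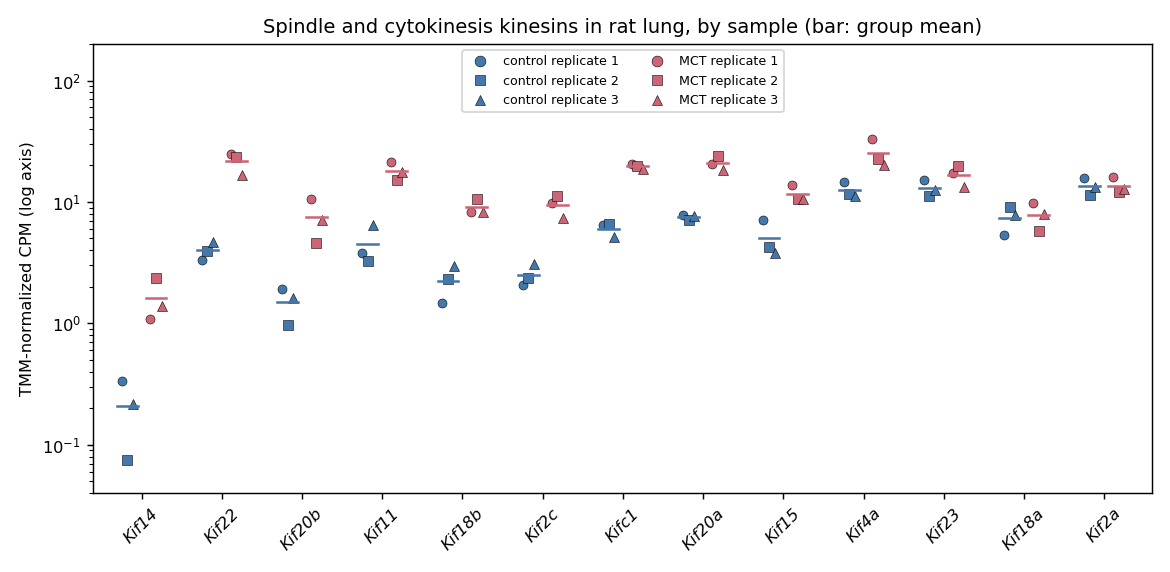
CPM (vertical log axis) of the 13 spindle and cytokinesis kinesins tested, in each of the 6 libraries, ordered from left to right by log2 fold change; bars are group means. The MCT samples lie above all controls from Kif14 to Kif4a and overlap with the controls in Kif23, Kif18a and Kif2a.

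Promoters are shown for some of the spindle kinesins, of which 10 of 13 tested were called higher and 3 were not called. The part of promoter letters in these changes was not tested. RefSeq promoter windows of 300 bases (build GRCr8), 250 before and 50 after the annotated start, matched 31 of the 42 symbols. The upstream 250 bases are printed for Kif22, Kif20b and Kif11, the genes with the largest rise, each from a different kinesin subfamily, among those with a window, and for Kif23, the uncalled spindle gene with the largest log2 fold change. Kif14 was not matched. Capitals mark matches, on either strand, to CCAAT (the CCAAT box), TTTGAA (the cell cycle genes homology region, CHR), its variant TTCGAA, and TTCCCGC (an E2F core). The marked matches do not overlap each other, and all sequences run from 5′ to 3′ in the direction of the gene.
Kif22 (GRCr8 chr1:191080879-191081128, minus strand): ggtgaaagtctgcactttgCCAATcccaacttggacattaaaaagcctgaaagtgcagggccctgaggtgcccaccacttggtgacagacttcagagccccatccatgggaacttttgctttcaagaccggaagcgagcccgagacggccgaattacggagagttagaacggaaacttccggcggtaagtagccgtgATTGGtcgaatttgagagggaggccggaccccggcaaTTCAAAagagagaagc
Kif20b (GRCr8 chr1:241840766-241841015, plus strand): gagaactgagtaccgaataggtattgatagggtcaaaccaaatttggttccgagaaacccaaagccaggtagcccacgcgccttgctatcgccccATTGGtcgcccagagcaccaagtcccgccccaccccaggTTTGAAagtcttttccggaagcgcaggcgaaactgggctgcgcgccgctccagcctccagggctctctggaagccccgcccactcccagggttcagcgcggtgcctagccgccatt
Kif11 (GRCr8 chr1:244536617-244536866, plus strand): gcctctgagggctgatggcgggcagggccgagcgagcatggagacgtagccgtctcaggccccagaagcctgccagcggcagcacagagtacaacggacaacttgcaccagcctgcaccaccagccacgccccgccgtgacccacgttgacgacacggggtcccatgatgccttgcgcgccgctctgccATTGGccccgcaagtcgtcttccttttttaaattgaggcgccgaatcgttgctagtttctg
Kif23 (GRCr8 chr8:71320585-71320834, minus strand): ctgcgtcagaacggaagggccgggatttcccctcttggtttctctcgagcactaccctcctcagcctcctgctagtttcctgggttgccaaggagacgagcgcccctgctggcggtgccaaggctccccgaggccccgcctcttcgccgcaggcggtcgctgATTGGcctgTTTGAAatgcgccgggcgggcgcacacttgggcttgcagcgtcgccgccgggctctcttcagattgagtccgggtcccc

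In Kif22 the CHR letters, read on the opposite strand, began 16 bases before the start, with CCAAT letters at 53 and 231 bases. Kif20b had CHR letters at 116 bases and CCAAT letters at 155 bases before the start, and Kif11 had CCAAT letters at 61 bases and no CHR letters in the window. Kif23, which was not called, had both, at 79 and 88 bases before the start. The letters TTTGAA were in 5 of the 9 windows of spindle kinesins called higher, in 2 of 19 windows of the other kinesin motors and in 18.1% of 27457 RefSeq windows of the same length. CCAAT was in 6 of the 9, in 6 of the 19 and in 37.7% of all windows. Both together were in 4 of the 9 (Kif20b, Kif22, Kif4a and Kifc1), in 1 of the 19 (Kif26b) and in 7.25% of all windows. TTCCCGC was in 1 of the 9 (Kif18b), in 1 of the 19 (Kif6) and in 4.47% of all windows. TTCGAA was in 0 of the 9, in 1 of the 19 (Kif24) and in 1.77% of all windows. Of the 3 windows of uncalled spindle kinesins, Kif23 was the only 1 with a match to the CHR, the CCAAT box or the E2F core, and the CHR variant was in 0 of them. These are matches of letters in windows around RefSeq starts and are no measure of binding in these lungs.

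Spindle kinesins took a larger share of the kinesin transcript pool in MCT lungs, as measured per gene length in FPKM. Summed over the 41 motors the pool was 274, 281 and 293 FPKM in controls and 295, 285 and 288 FPKM in MCT lungs, so its total lay in a narrow range in both groups. Spindle kinesins summed to 27.7, 24.7 and 27.8 FPKM in controls and to 66.4, 59.0 and 52.3 FPKM in MCT lungs. The groups did not overlap, and the ratio of means was 2.22. Cargo kinesins summed to 208, 215 and 218 FPKM in controls and to 191, 191 and 192 FPKM in MCT lungs, a ratio of 0.896, again with no overlap. Kifc2 made up most of that difference: without it the cargo sums were 176, 185 and 195 FPKM in controls and 185, 178 and 181 FPKM in MCT lungs, which overlap, at a ratio of 0.976. These sums include Kif1b, whose gene length implied by count and FPKM was shorter in MCT lungs, at a ratio of means of 0.869. In CPM, which is not scaled to length, cargo genes summed to 930, 937 and 918 in controls and 814, 855 and 837 in MCT lungs. Taking Kifc2 out of the CPM sums left all MCT samples below all controls, so the overlap depends on the scale. With 3 against 3 samples an exact permutation test cannot go below p = 0.10, so these sums are given without one.

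**Figure D3:**
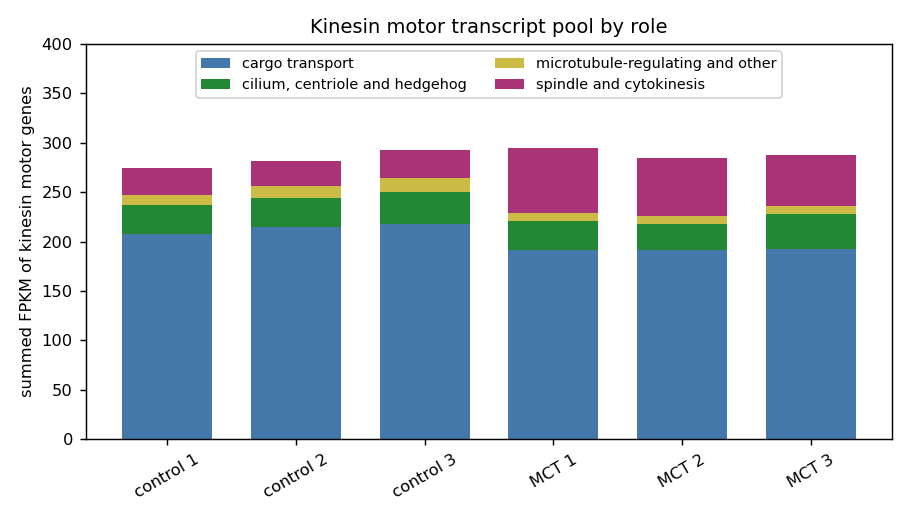
Summed FPKM of the 41 kinesin motor genes (vertical axis) in each library, stacked by role. The spindle layer at the top is thicker in the MCT samples, between 52.3 and 66.4 FPKM, than in the controls, between 24.7 and 27.8 FPKM, while the total stays between 274 and 295 FPKM.

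Within the spindle set the order of levels also changed. In controls the highest mean FPKM values were those of Kif2a at 6.40 ± 0.929 and Kif23 at 4.25 ± 0.636 (SD, n = 3), the 2 genes that take 23.9% and 15.9% of the set's FPKM. In MCT lungs Kif22 came first at 9.14 ± 1.86 FPKM, followed by Kifc1 at 8.55 ± 0.476 and Kif20a at 7.12 ± 0.881 FPKM (SD, n = 3), and the first pair did not differ beyond their spread. Kif22 took 4.98%, 6.72% and 7.42% of the set's FPKM in controls and 16.0%, 16.5% and 13.5% in MCT lungs. Kif2a took 26.1%, 21.8% and 23.7% in controls and 11.6%, 9.58% and 11.4% in MCT lungs, at a mean level of 6.44 ± 1.09 FPKM in MCT lungs (SD, n = 3). Among the 10 genes that rose, MCT replicate 1 was the highest MCT sample for 6 and MCT replicate 2 for 4, while MCT replicate 3 was the lowest for 6.

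Genes whose proteins work with the mitotic kinesins rose too. Of 14 spindle partners all 14 were called higher (edgeR, against 8.01% of all genes), with a median log2 fold change of 1.60. Nusap1, which bundles microtubules near chromosomes, rose by 2.38 (SE 0.20), the midzone crosslinker Prc1, which recruits Kif4a, by 1.53 (SE 0.16), the passenger complex subunit gene Birc5 by 2.43 (SE 0.26), and Aurkb, its kinase, by 1.43 (SE 0.21, edgeR adjusted p = 0.000743 to 0.00509 over these genes). Cenpe, a kinetochore kinesin whose symbol lies outside the member rule, rose from 2.69 ± 0.460 to 13.5 ± 3.40 CPM (SD, n = 3), a log2 fold change of 2.32 (SE 0.26, edgeR adjusted p = 0.00197). Markers of cycling cells moved with the spindle kinesins: 4 of 5 were called higher (Top2a, Cdk1, Ccnb1 and Mki67), and the summed level of the 5 was 119 to 128 CPM in controls and 258 to 316 CPM in MCT lungs. Mki67 rose by 1.94 (SE 0.21), while Pcna had 0.45 (edgeR adjusted p = 0.06). All MCT samples of Pcna lay above all controls, and DESeq2 called all 5 markers higher. Pcna, with means of 86.9 CPM in controls and 118 CPM in MCT lungs, made up most of the sum in controls. The part of the number of cycling cells in the rise of each kinesin was not tested.

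Tubulins, the track on which kinesins move, were called higher in 9 of 21 tested genes of the tubulin and gamma-tubulin complex list (42.9%, against 8.01% of all genes), and 1 was called lower (4.76%, against 5.11%). Tubb6 rose by 1.60 (SE 0.15), from 25.9 ± 2.39 to 78.5 ± 13.8 CPM, and Tuba1b by 0.59 (SE 0.13), from 579 ± 17.4 to 868 ± 38.1 CPM (SD, n = 3). Tuba1c rose by 1.13 (SE 0.20) and Tubb2b by 1.5 (SE 0.28, edgeR adjusted p = 0.000992 to 0.0202 over the 4 genes). The 1 that fell, named here after its value was seen, was Tuba3a, by 2.03 (SE 0.38, edgeR adjusted p = 0.0125). Since tubulin genes resemble each other closely, how reads were shared out among them is uncertain. The 23 genes called higher among the 93 tested of all 5 partner lists (24.7%, against 8.01% of all genes) were these 9 tubulins and the 14 spindle partners, and 15 were called higher with control replicate 2 or 3 left out.

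Cargo kinesins made up most of the pool. Kif1c, a fast motor for vesicles and integrins, was the most abundant kinesin at 84.1 ± 7.59 FPKM in controls and 78.4 ± 2.94 FPKM in MCT lungs (SD, n = 3). Kif1b, a motor of mitochondria and synaptic vesicle precursors, followed at 31.0 ± 0.128 and 39.3 ± 6.90 FPKM, and Kif5b, the widely expressed conventional kinesin, stood at 17.1 ± 2.72 and 19.4 ± 3.63 FPKM. Kif13a, an endosome motor, had 14.2 ± 1.06 and 12.3 ± 2.96 FPKM. None of these 4 was called, with log2 fold changes of -0.09 (SE 0.12) for Kif1c, 0.14 (SE 0.12) for Kif1b, 0.18 (SE 0.17) for Kif5b and -0.20 (SE 0.18) for Kif13a (edgeR adjusted p = 0.489 to 0.664). Of 12 cargo genes tested 0 were called higher, by edgeR, DESeq2 or limma-voom, with 0 higher at an unadjusted p under 0.05. Over all genes tested, edgeR called 8.01% higher, and 2418 of 15250 were higher at an unadjusted p under 0.05. In a list of 12 genes few would be met in any case, so these counts say little about cargo motors.

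Kifc2, a C-terminal motor best known from dendrites and axons of neurons, fell the most of all kinesins. It had 102, 94.1 and 70.0 CPM in controls and 20.9, 40.5 and 34.7 CPM in MCT lungs. The highest MCT sample was well below the lowest control, and the log2 fold change was -1.47 (SE 0.24, edgeR adjusted p = 0.00822). It was called in all 14 alternative settings, at -1.68 to -1.23 (adjusted p up to 0.0384). On the FPKM scale Kifc2 came next after Kif1c and Kif1b in controls, at 27.9 ± 4.52 FPKM (SD, n = 3). In the RefSeq table its span overlaps that of Foxh1, and its deposited counts are not whole numbers, so a share of its reads may have been split with another gene. Markers of neurons gave no common direction: of 9, only 3 passed the filter, and Stmn2 was called lower (-2.59), Uchl1 higher (2.02, edgeR adjusted p = 0.0485, and not called with limma-voom), and Syt1 was not called (1.13, edgeR adjusted p = 0.282). The summed level of these 3 was 14.4 to 20.2 CPM in controls and 7.99 to 13.3 CPM in MCT lungs. Stmn2 carried that fall, with means of 13.6 and 2.26 CPM, while Syt1 had 2.33 and 5.13 CPM and Uchl1 0.594 and 2.46 CPM. Tubb3, which did not pass the filter, had 5, 0 and 7 counts in controls and 91, 11 and 53 in MCT lungs. The neuronal nuclear marker Rbfox3 was near 0 in both groups, with means of 0.0914 and 0.0395 CPM. The part of nerve fibres in the fall of Kifc2 was not tested.

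Kif13b, which carries membrane proteins and binds the scaffold Dlg1, had 29.3, 30.9 and 38.0 CPM in controls and 22.2, 24.0 and 22.1 CPM in MCT lungs. The groups did not overlap, and the log2 fold change was -0.52 (SE 0.14, edgeR adjusted p = 0.0451). This call ended when any 1 of the 6 samples was left out (adjusted p = 0.0508 to 0.163), with limma-voom (adjusted p = 0.0502) and on both FPKM scales (adjusted p = 0.105 and 0.106), in a range of 0.0245 to 0.163 over all settings. Kifc3, a minus-end motor of junctions and apical transport, had 31.2, 38.4 and 34.7 CPM in controls and 22.4, 25.1 and 28.2 CPM in MCT lungs. Its samples did not overlap either, but its log2 fold change of -0.46 (SE 0.14) did not pass (edgeR adjusted p = 0.0685).

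The remaining cargo genes overlapped between the groups. Kif16b, an early endosome motor, had a log2 fold change of -0.13 (SE 0.12), and Kif3c, a partner of Kif3b, one of -0.30 (SE 0.20). The neuronal motors were low, at mean levels of 1.57 ± 1.31 and 1.20 ± 0.293 CPM for Kif1a and 3.20 ± 1.08 and 3.29 ± 1.24 CPM for Kif5c in controls and MCT lungs (SD, n = 3). Control replicate 3 held 57 counts of Kif1a, against 10 and 13 in the other controls, and without it the log2 fold change turned from -0.40 to 0.57 (adjusted p = 0.535, and 0.401 to 0.893 over all settings). Kif5a, another neuronal member of the conventional kinesins, had 6.92, 6.48 and 6.74 CPM in controls, close together, and 12.5, 10.9 and 5.18 CPM in MCT lungs, of which the last lay below the controls. Kif28p was listed at 0 in all 6 libraries. Kif1bp, the binding protein, had 58.4, 51.5 and 55.6 CPM in controls and 43.7, 50.1 and 51.4 CPM in MCT lungs, all MCT values below all controls, with a log2 fold change of -0.19 (SE 0.12, edgeR adjusted p = 0.322).

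**Figure D4:**
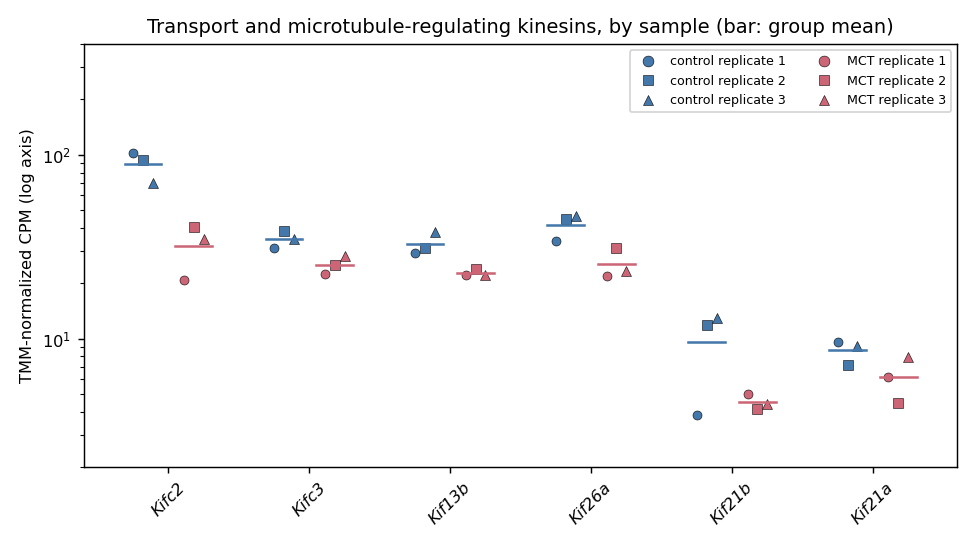
CPM (vertical log axis) of 3 cargo kinesins and 3 microtubule-regulating kinesins in each library, with group means as bars. Kifc2, Kifc3, Kif13b and Kif26a lie lower in all MCT samples than in any control, while Kif21b and Kif21a overlap.

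The genes of cargo adaptors and of the opposite motor showed no called change by edgeR, against 13.1% of all genes called in either direction. Over the 15250 genes tested, 2418 higher and 2161 lower had an unadjusted p under 0.05 in edgeR's test. In lists of 19 and 21 genes few calls would be met in any case, so these counts say little about adaptors or dynein. Of 19 tested light chain and adaptor genes 0 were called by edgeR, DESeq2 or limma-voom, and 1 higher and 2 lower had an unadjusted p under 0.05. These were Arl8a, a lysosomal GTPase, at 0.29 (SE 0.10), Klc4, a kinesin light chain, at -0.46 (SE 0.16), and Map7, a microtubule protein that recruits Kif5b, at -0.40 (SE 0.17). Arl8b, a close relative of Arl8a, had 0.29 (SE 0.13), and Map7d1, a relative of Map7, had 0.01 (SE 0.12). Of 21 genes of cytoplasmic dynein and its activator dynactin, 0 were called by edgeR or limma-voom, and 3 higher and 2 lower had an unadjusted p under 0.05. With DESeq2, Dynlt1 was called higher and Dynlt3 lower, both dynein light chain genes, at edgeR log2 fold changes of 0.59 (SE 0.18) and -0.36 (SE 0.11). Dynll2, another light chain gene, had -0.44 (SE 0.15), and Pafah1b1, the LIS1 gene, had -0.12 (SE 0.12). The medians of these lists were -0.02 and 0.06, against -0.01 over all genes tested.

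Kinesins of the cilium, centriole and hedgehog pathway were not called in any of 9 genes by edgeR, DESeq2 or limma-voom, and 0 had an unadjusted p under 0.05. The kinesin-2 subunits Kif3a and Kif3b, which drive intraflagellar transport, had log2 fold changes of -0.06 (SE 0.19) and 0.14 (SE 0.11), and Kif7, a hedgehog regulator at the ciliary tip, had -0.20 (SE 0.15). Kif3b was the highest of the 9, at 10.1 ± 1.12 FPKM in controls and 11 ± 0.476 FPKM in MCT lungs (SD, n = 3), followed by Kif3a at 7.40 ± 1.62 and 6.88 ± 1.23 FPKM. Kif17, a second motor of intraflagellar transport, was low, with 13 to 27 counts per library. Of the other components of intraflagellar transport 0 of 18 were called by edgeR, DESeq2 or limma-voom, and 0 had an unadjusted p under 0.05. With 13.1% of all genes called in either direction, few calls would be met in lists of 9 and 18 genes in any case. The counts of calls thus say little about the cilium. At an unadjusted p under 0.05 the share over all genes was larger, at 2418 of 15250 higher and 2161 lower in edgeR's test. Whether these lists differ from that share was not tested. The smallest p-values were those of Ift122 at -0.26 (SE 0.14), Ift46 at -0.27 (SE 0.15) and Ift140 at -0.24 (SE 0.14), and Ift20 had 0.02 (SE 0.11).

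The kinesins of motile cilia differed more between MCT samples than between groups. Kif27 had 8.78, 12.1 and 10.3 CPM in controls and 6.98, 7.23 and 17.2 CPM in MCT lungs, with MCT replicate 3 the highest of all samples and the other MCT samples the lowest. The span of another gene, Kif27l1, overlaps that of Kif27 in the RefSeq table, so its reads may be split, though its deposited counts are all whole. Kif19, which limits the length of motile cilia, had 4.92, 8.04 and 6.47 CPM in controls and 3.25, 3.44 and 7.64 CPM in MCT lungs, the same order of MCT samples. Kif6 had 1.60, 2.23 and 1.94 CPM in controls and 3.05, 1.13 and 4.55 CPM in MCT lungs, and Kif9, an axonemal motor, had 5.32, 4.10 and 4.21 against 6.92, 2.85 and 7.07 CPM. In each of these 4 genes MCT replicate 3 was the highest MCT sample, though by little in Kif9. A further locus annotated as KIF19, outside the member rule, had the reverse, with 4.81, 9.78 and 4.27 CPM in MCT lungs and replicate 3 the lowest. The 13 markers of ciliated cells in the table, 0 of which were called by edgeR, DESeq2 or limma-voom or had an unadjusted p under 0.05, summed to 335 to 424 CPM in controls and to 357, 285 and 546 CPM in MCT replicates 1 to 3, also highest in replicate 3. Whether the share of ciliated airway in the tissue pieces takes part in this spread was not tested. Without MCT replicate 3 the log2 fold change of Kif27 turned from 0.01 to -0.54 (adjusted p = 0.197, and 0.197 to 0.999 over all settings).

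Kif24, which acts at centrioles to hold back the formation of cilia, had 2.53, 2.31 and 2.48 CPM in controls and 6.24, 2.19 and 5.18 CPM in MCT lungs. MCT replicates 1 and 3 were above all controls and replicate 2 was below them. The log2 fold change was 0.89 (SE 0.39, edgeR adjusted p = 0.167), and the gene was called without MCT replicate 2, at 1.22 (adjusted p = 0.0261, and 0.0261 to 0.438 over all settings).

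**Figure D5:**
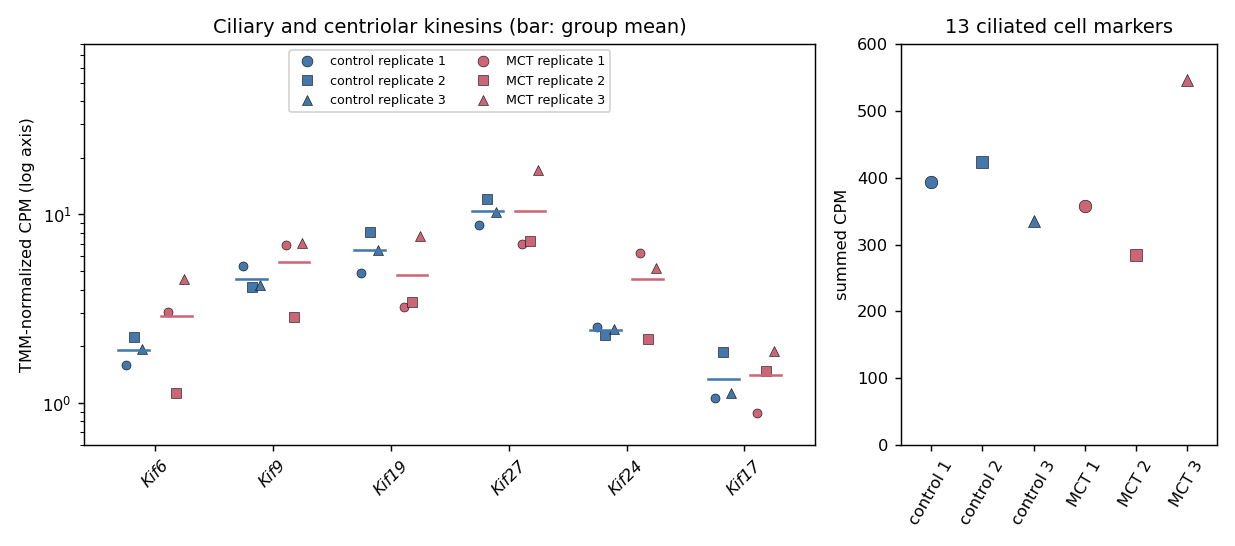
Left, CPM (vertical log axis) of 6 ciliary and centriolar kinesins in each library, with group means as bars; right, summed CPM of the 13 ciliated cell markers in the same libraries. MCT replicate 3 is the highest MCT sample for Kif6, Kif9, Kif19, Kif27 and Kif17 and for the markers, at 546 CPM.

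Among the kinesins that regulate microtubules or have another function, 4 of 5 were tested and 1 was called. Kif26a, a kinesin without ATPase activity that dampens growth factor signalling, had 33.9, 44.5 and 46.2 CPM in controls and 21.9, 31.0 and 23.4 CPM in MCT lungs. No MCT sample reached the lowest control, and the log2 fold change was -0.71 (SE 0.18, edgeR adjusted p = 0.0366). Leaving out control replicate 2 or 3 ended the call (adjusted p = 0.117 and 0.131), as did leaving out MCT replicate 1 or 3 (adjusted p = 0.106 and 0.12) and either FPKM scale (adjusted p = 0.0634 and 0.0646), in a range of 0.00731 to 0.131 over all settings. Its relative Kif26b had 8.65, 8.04 and 9.11 CPM in controls and 10.8, 13.3 and 8.69 CPM in MCT lungs, with a log2 fold change of 0.34 (SE 0.21, edgeR adjusted p = 0.3) that did not pass.

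Kif21b, which slows microtubule growth and is known from neurons and lymphocytes, had 3.86, 11.8 and 12.9 CPM in controls and 5.02, 4.15 and 4.41 CPM in MCT lungs. Control replicate 1 was the lowest of all 6 samples, below the MCT samples, which lay close together. The log2 fold change of -1.08 (SE 0.41) did not pass (edgeR adjusted p = 0.119), but was -1.45 and passed without control replicate 1 (adjusted p = 0.0119, and 0.0119 to 0.335 over all settings). The 5 T cell markers, 0 of which were called by edgeR or limma-voom, 1 lower by DESeq2 (Lck) and 4 lower at an unadjusted p under 0.05, summed to 62.1, 90.1 and 70.7 CPM in controls and to 41.0, 62.9 and 35.4 CPM in MCT lungs. Control replicate 1 was thus the lowest control for the sum of these markers too, though for Cd3e alone control replicate 3 was the lowest. Among the MCT samples the order did not match: replicate 2 was the highest for the marker sum and the lowest for Kif21b. The part of T cells in the values of Kif21b was not tested. Its relative Kif21a had 9.58, 7.22 and 9.11 CPM in controls and 6.17, 4.45 and 7.92 CPM in MCT lungs (log2 fold change -0.49, SE 0.26, edgeR adjusted p = 0.241). Kif12 had 0 to 4 counts per library and was not tested.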

How the data were processed

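PolyA RNA of lung tissue was sequenced in 6 samples, grouped and numbered by their titles. Each gene has 1 estimated count and 1 FPKM value per sample, both made by the authors, per the file headers. Alignment tools (TopHat2 2.0.3.12 and Bowtie2) and the build, Rnor_6.0, are those of the submitters' processing notes. No source used here gives the counting tool, its use of strand or its handling of shared reads. Among non-zero deposited counts 90.7% to 91.5% per sample were whole, and rounding was applied to the rest. Counts carry no molecular identifiers. Without strand, reads of genes that overlap a kinesin, such as Ide with Kif11, Cdc23 with Kif20a, Setd2 with Kif9 and Ticrr with Kif7 in the RefSeq table (GRCr8), cannot be told apart where exons overlap. Deposited counts of 3 kinesins (Kif19, Kif20a and Kifc2) were not all whole.

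The test was edgeR 4.0.16 (R 4.3.3), quasi-likelihood, TMM, filterByExpr with a minimum count of 10 and a total of 15, no covariates. It was planned for raw counts and run on the rounded estimates. Standard errors were derived from the log2 fold change and its F statistic. The script was tested on simulated data. Alternatives were DESeq2 1.42.0, limma-voom (limma 3.58.1), median-of-ratios size factors, no filter, a filter of 1 CPM in all samples of a group, log2(FPKM + 0.1) and log2(FPKM + 1) with limma, each sample left out, and the replicate number as a block.

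Every kinesin is named. In each partner list the 3 genes with the smallest p-values and the gene with the highest mean CPM over the 6 samples, a level not scaled to gene length, are named. Other genes of the partner and marker lists were chosen for naming after their values were seen. The members, roles and lists were chosen with earlier results of these data known.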

Additional observations from a re-analysis of the deposited data

How the results depend on the processing

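Of the 13 kinesins called, 8 were called in all 14 alternatives: Kif2c, Kif11, Kif18b, Kif20a, Kif20b, Kif22, Kifc1 and Kifc2. The number of kinesins called higher was 10 in all alternatives that keep the 6 samples except on the log2(FPKM + 1) scale, where it was 9, and 7 to 11 with 1 sample left out. The number called lower was 1 on both FPKM scales, for the kinesins outside the spindle role as well, and 1 to 3 with 1 sample left out. Outside the spindle role 0 to 1 was called higher with 1 sample left out. Over all genes, 481 to 1394 were called higher and 212 to 978 lower with 1 sample left out. Of the partner genes 23 were called higher and 1 lower, 15 to 24 and 0 to 2 with 1 sample left out, and 2 were called lower with DESeq2 and on both FPKM scales.

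Signs turned only in 7 kinesins that were not called. Kif27 was at -0.10 with the replicate block, -0.12 with limma-voom and -0.12 and -0.06 on the FPKM scales, and Kif5c at -0.04 and -0.02 on the FPKM scales. With 1 sample left out, the log2 fold change ran from -0.54 to 0.23 for Kif27, -0.22 to 0.30 for Kif5c, -0.17 to 0.37 for Kif17, -0.10 to 0.27 for Kif18a, -0.12 to 0.13 for Kif2a, -0.21 to 0.05 for Kif3a and -0.76 to 0.57 for Kif1a. The cause was not tested.

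With the replicate number as a block, 10 kinesins were called higher and 2 lower (Kif13b was not called, adjusted p = 0.0888), and 917 and 546 of all genes. Same-numbered samples shared no deviation from their group means (r = -0.058, -0.07 and -0.002 across genes, which are not independent), and no sample correlated best with its own number. Summing the identifiers of a symbol was not run, since each kinesin symbol had 1 identifier. Depth limits Kif14, Kif1a, Kif17 and Kif6, with at most 65 counts in any library.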

Other observations

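The gene length implied by count, library total and FPKM gave a further value for Kif1b, chosen after the values were seen. It was 5694, 5484 and 5497 bases in control replicates 1 to 3 and 4530, 5032 and 4930 bases in MCT replicates 1 to 3. The groups did not overlap, and the ratio of the MCT mean to the control mean was 0.869. Of 8696 genes that reached 5 FPKM in each of the libraries, 11 (0.126%) had a difference of over 10% between means with no overlap, and Kif1b was the only 1 of the 12 kinesins in that set. Accordingly the FPKM of Kif1b stood 0.33 higher on the log2(FPKM + 0.1) scale in MCT lungs (limma adjusted p = 0.154), while its counts gave 0.14 (edgeR adjusted p = 0.489, and 0.153 to 0.85 over all settings). No source used here says how the length was set for each library.

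A further locus is annotated as KIF19 in capitals and lies outside the member rule. It had 95, 159 and 173 counts in controls and 71, 165 and 61 counts in MCT lungs, with a log2 fold change of -0.54 (SE 0.36, edgeR adjusted p = 0.362). Kifap3, the gene of the accessory subunit of the Kif3 motor, stood at 59.8 ± 1.66 CPM in controls and 57.2 ± 0.621 CPM in MCT lungs (SD, n = 3).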
